A study of Mus musculus with 15 samples.

Results

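The genes described here encode the canonical histones, which package newly copied DNA, and the replacement histones, which can be built into chromatin at any time. They were taken by gene symbol: symbols that begin with Hist1h, Hist2h, Hist3h or Hist4h, with H2af or with H3f3, and the symbols H1f0 and H1fx. This gave 88 of the 31298 symbols measured. Of these, 64 were replication-dependent genes of the histone clusters, 13 were replacement histone genes, and 11 were pseudogenes or other testis variants, which were counted apart. The 3 H2afb genes, also known from testis, were kept among the replacement genes. The replication-dependent genes lie in 4 places: 51 on chromosome 13 (the Hist1 cluster), 10 on chromosome 3 (Hist2), 2 on chromosome 11 (Hist3) and 1 on chromosome 6 (Hist4), in the mouse build GRCm38.

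Hematopoietic stem cells (HSCs) were sorted from mouse bone marrow and their RNA was sequenced. All mice carried 2 transgenes, hCD34-tTA and TetO-H2BGFP, so that a fusion of histone H2B and green fluorescent protein (GFP) was made under a transactivator driven by human CD34 sequence. All were given doxycycline in their drinking water, which switches the fusion off, so that division dilutes the label. Cells gated as LSK, CD48-, Flk2- and CD150+ were either left undivided (Total) or split by label into GFP4, GFP3, GFP2 and GFP1. Each of the 5 groups held 3 libraries, I, II and III, from mice aged 5, 5.5 and 6.5 months that had received doxycycline for 12, 14 and 16 weeks, respectively. Whether GFP4 or GFP1 cells kept more label is not written in the labels, so every group is called by its bin name. The labels also leave out whether a library is 1 mouse or a pool, or whether libraries of 1 number share mice; the p-values therefore measure the spread between these libraries. The label depends on where the CD34 sequence drives the transactivator, and no group without the transgenes or without doxycycline was analysed here. The fusion itself encodes a histone H2B; whether its transcript added reads to the H2B genes was not tested.

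Replication-dependent histone genes are transcribed mainly in S phase, when new nucleosomes are needed. Their transcripts usually end in a conserved stem-loop in place of a poly(A) tail, and the stem-loop binding protein, encoded by Slbp, carries them through processing and translation. Most replacement histone genes have ordinary polyadenylated transcripts that are made through the cell cycle, and they supply chromatin in resting cells such as quiescent stem cells. The cDNA kit named in the labels primes from poly(A) tails, so the measured part of the replication-dependent transcripts is the part that such priming captures.

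The stem-loop was looked for in the GENCODE M21 transcripts of these genes as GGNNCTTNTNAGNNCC on the sense strand. It was present in 45 of the 64 replication-dependent genes, 1 of 13 replacement genes and 160 of 58701 other coding transcripts (0.273%). It began 21 to 58 bases after the stop codon in the replication-dependent genes, and in all 45 the 6 bases on either side of the loop were reverse complements. The forms are shown because they mark the class apart from expression; capitals mark the 4-base loop.
Most common form, 26 genes, as in Hist1h2ap (chr13:21833029-21833044, minus strand): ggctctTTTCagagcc
Form of 7 H4 genes, as in Hist1h4d (chr13:23581950-23581965, plus strand): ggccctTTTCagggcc
Form of 5 genes, as in Hist1h2bk (chr13:22036300-22036315, plus strand): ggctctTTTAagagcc
Form of Hist1h4i and Hist2h4 (for Hist1h4i chr13:22040966-22040981, minus strand): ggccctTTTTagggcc
Form of Hist1h4b and Hist1h4j (for Hist1h4b chr13:23757366-23757381, plus strand): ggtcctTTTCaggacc
Hist1h3g (chr13:23535889-23535904, plus strand): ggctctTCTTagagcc
Hist1h4a (chr13:23760800-23760815, minus strand): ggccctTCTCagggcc
Hist2h2ac (chr3:96220418-96220433, minus strand): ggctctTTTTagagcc
H2afx, the 1 replacement gene (chr9:44335240-44335255, plus strand): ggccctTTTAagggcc
In 23 of the 45 genes the annotated transcript ended near the stem-loop, and in 22 it ran more than 100 bases past it, so that a longer transcript than the processed one is annotated. The other 19 models, that of Hist1h1b among them, held no stem-loop. Sequence past the end of a model was not searched, so these genes may have a stem-loop beyond it.

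Promoters were read from RefSeq as windows of 300 bases around the start site (build GRCm38.p6), which were found for 59 replication-dependent and 12 replacement genes. Searched on both strands, CCAAT was present in 84.7% of the replication-dependent windows, 75.0% of the replacement windows and 37.4% of all 32851 RefSeq windows. TATAAA was present in 55.9%, 8.3% and 13.6%, respectively, and the octamer ATTTGCAT in 18.6%, 8.3% and 1.7%. The E2F motif TTTGGCGC was present in 0.0%, 0.0% and 0.5%. These are matches of letters, not binding sites. The 150 bases before the start are printed for Hist1h1b and Hist1h2ab, which had the smallest p among the members higher in GFP1, and for Hist3h2a, which was lower; capitals mark the first 3 of those motifs on either strand.
Hist1h1b (chr13:21780626-21780775, minus strand): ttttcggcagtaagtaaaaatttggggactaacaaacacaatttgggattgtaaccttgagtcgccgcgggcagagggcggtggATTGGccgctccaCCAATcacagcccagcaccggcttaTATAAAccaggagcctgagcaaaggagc
Hist1h2ab (chr13:23750938-23751087, plus strand): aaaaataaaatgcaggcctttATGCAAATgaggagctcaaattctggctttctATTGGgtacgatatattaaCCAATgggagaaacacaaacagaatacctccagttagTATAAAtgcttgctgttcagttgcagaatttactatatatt
Hist3h2a (chr11:58954535-58954684, plus strand): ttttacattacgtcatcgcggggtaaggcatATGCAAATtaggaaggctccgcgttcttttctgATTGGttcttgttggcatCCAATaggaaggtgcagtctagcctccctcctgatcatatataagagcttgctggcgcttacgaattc
The Hist3h2a stretch holds the octamer and CCAAT in both directions, as the Hist1h2ab stretch does. It has no exact match to TATAAA, and looser forms of the TATA box were not searched.

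Values are log2 expression per gene symbol, and a difference of 1 is a factor of 2. The 15 libraries share 1 distribution apart from its lowest values (0.14 in most libraries), so read depth is unknown. Levels are compared between groups. Rankings of genes by mean and sums over genes also set levels of different genes side by side. They depend on the unit before normalization, which is not stated. Plasma and B cell genes set the GFP1 and Total libraries apart. The 12 listed markers of those cells summed to between 20935 and 27776 ppm of the linear values in GFP1 and between 22476 and 24148 ppm in Total, against 299.6 to 650.9 ppm in the other 9 libraries, and none was at the lowest value in any library. All 12 were higher in GFP1 than in GFP4, as were 4 of 8 erythroid and 1 of 4 T and NK cell markers. Of the neutrophil and macrophage markers 0 of 8 were called. Of the HSC markers 7 of 9 were lower, and of the 2 sort markers 1 was higher and 1 lower. Over all genes tested, 9.27% were called higher and 10.3% lower in this comparison. The part of the marked cells in the results below was not tested. Because these are pools of cells, more cells of a type and more RNA per cell cannot be told apart. Paralogs share reads: in a median replication-dependent gene 37.6% of the 31-base words of its transcripts occurred in no other gene, against 84.6% for replacement genes. Values of single near-identical genes are therefore uncertain, and 41 of the 64 had under 50% such words.

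GFP1 against GFP4 compares the ends of the label range. Of the 64 replication-dependent genes, 34 were higher in GFP1, 4 were lower and 26 were not called (limma, adjusted p under 0.05). Over all 27994 genes tested, 9.27% were called higher and 10.3% lower. The median difference was 1.81 for the replication-dependent genes and −0.07 for all genes. All 5 families had members that rose: 4 of 5 linker H1 genes, 10 of 17 H2A, 6 of 17 H2B, 7 of 12 H3 and 7 of 13 H4. The 4 lower genes were H2A or H2B genes; without GFP4 library III or without GFP1 library I they numbered 2.

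**Figure D1:**
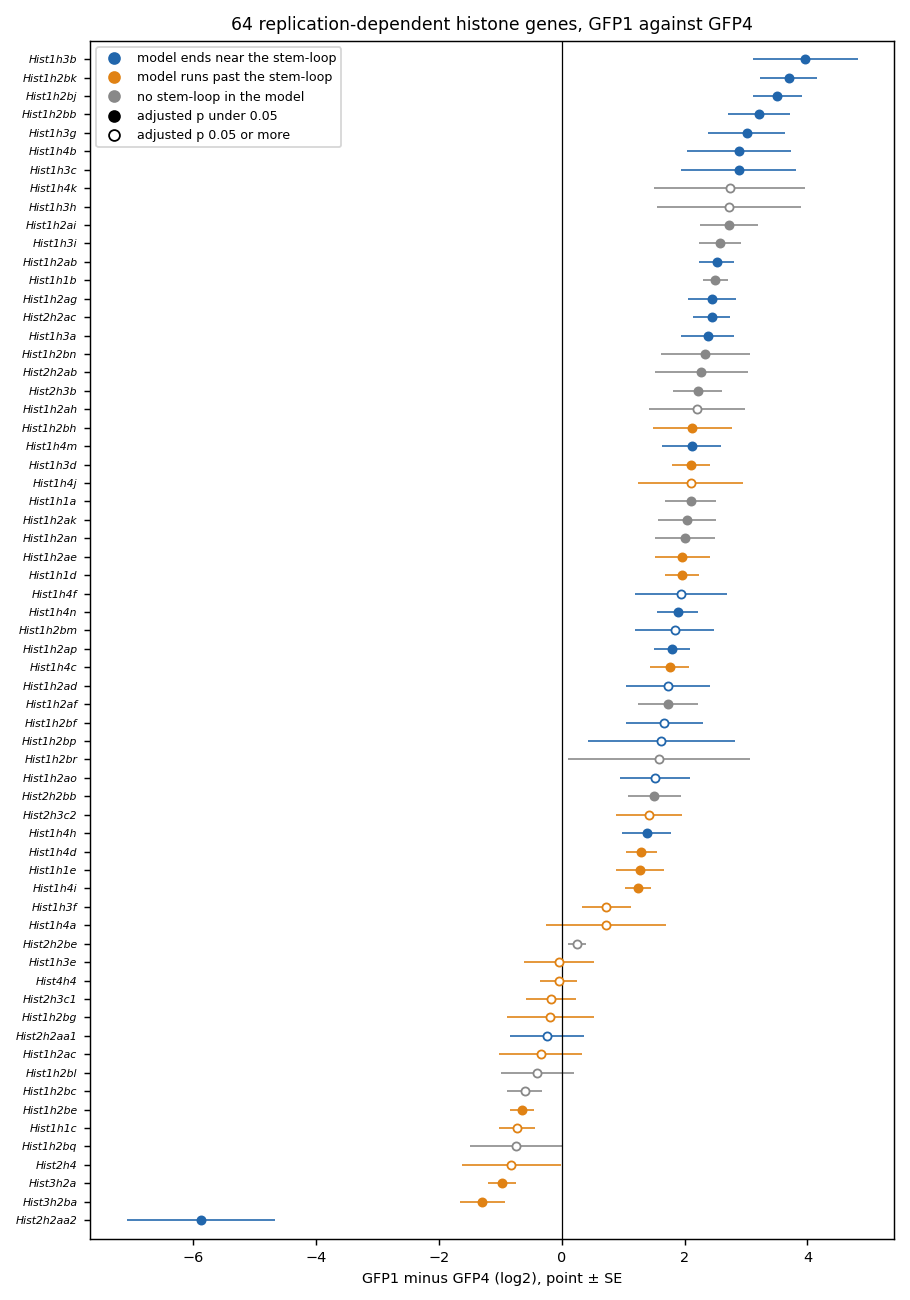
Difference between GFP1 and GFP4 (log2, horizontal axis, point ± SE) for each of the 64 replication-dependent histone genes. Filled points had an adjusted p under 0.05, and colours give the kind of annotated transcript; 34 filled points lie to the right of 0 and 4 to the left, with Hist2h2aa2 far below the rest at −5.88.

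Linker histones bind DNA between nucleosomes. Hist1h1b, which encodes H1.5 (chromosome 13, 21779883 to 21780625), was 8.20, 8.09 and 8.09 in the 3 GFP4 libraries. It was 9.28, 8.90 and 9.24 in GFP3 and 9.87, 9.60 and 10.16 in GFP2. In GFP1 it was 10.76, 10.93 and 10.20, and in Total 9.80, 10.40 and 10.63. Every GFP3 library lay above every GFP4 library, every GFP2 library above every GFP3 library, and every GFP1 library above every GFP2 library. The difference between GFP1 and GFP4 was 2.50 (SE 0.21, limma adjusted p = 8.51e-08), and 96.1% of its words are its own, so that paralogs share little of it. Hist1h1d, which encodes H1.3, rose by 1.95 (SE 0.27, adjusted p = 2.54e-05), and Hist1h1a, which encodes H1.1, by 2.10 (SE 0.42, adjusted p = 0.000936). In Hist1h1a the GFP1 libraries (6.89, 6.81 and 6.54) lay within the range of the GFP2 libraries (8.02, 6.25 and 7.86). Hist1h1e, which encodes H1.4, rose by 1.27 (SE 0.39, adjusted p = 0.04), a call lost without any 1 GFP4 library I or II, GFP1 library II or III, GFP3 library II, Total library II or any GFP2 library (adjusted p from 0.053 to 0.142), and where GFP1 and GFP4 were fitted by themselves (adjusted p = 0.0756). Hist1h1c, which encodes H1.2, was the exception in this family. It was 10.46, 9.85 and 10.80 in GFP4 and 9.34, 9.85 and 9.74 in GFP1, a difference of −0.72 (SE 0.29, adjusted p = 0.116); it passed as lower without GFP4 library II (−0.99, adjusted p = 0.028).

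Among the core histones, H2A pairs with H2B and H3 with H4. Hist1h2ab (chromosome 13, 23751126 to 23751598) was 6.96, 6.66 and 6.95 in GFP4 and 9.04, 9.66 and 9.42 in GFP1. Its values in GFP3 were 8.01, 7.36 and 8.35, in GFP2 8.70, 8.14 and 8.56, and in Total 8.12, 8.88 and 9.25. The GFP4 libraries lay below all others and the GFP1 libraries above all other bins, and the GFP1 and Total libraries overlapped. Its difference was 2.52 (SE 0.28, adjusted p = 2.0e-06), and 37.0% of its words are its own. Hist1h2ap was 14.12, 13.42 and 14.38 in GFP4, 14.55, 14.14 and 14.85 in GFP3, 15.12, 14.96 and 15.35 in GFP2, 15.69, 15.73 and 15.86 in GFP1, and 14.73, 14.98 and 15.69 in Total. GFP1 did not overlap any other bin, whereas GFP3 overlapped GFP4. The difference was 1.79 (SE 0.29, adjusted p = 0.0012), but only 6.6% of its words are its own and 93.4% also occur in Hist1h2ao, so these 2 cannot be separated. Hist1h2ao differed by 1.51 (SE 0.57, adjusted p = 0.101) and was not called.

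Other H2A genes that rose were Hist1h2ae by 1.96 (SE 0.45, adjusted p = 0.00998, but 0.0972 with these groups fitted by themselves), Hist1h2ag by 2.45 (SE 0.39, adjusted p = 0.000102) and Hist2h2ac by 2.44 (SE 0.30, adjusted p = 6.67e-06). Only 20.2% of the Hist1h2ag words and 35.9% of the Hist2h2ac words are their own. Of the H2B genes, Hist1h2bk was 2.89, 2.84 and 3.49 in GFP4 and 6.84, 7.12 and 6.32 in GFP1, with no overlap. It rose by 3.69 (SE 0.46, adjusted p = 7.06e-06). Hist1h2bj rose by 3.51 (SE 0.41, adjusted p = 2.72e-06) and Hist1h2bb by 3.21 (SE 0.50, adjusted p = 8.38e-05). Own words made up 24.7% of Hist1h2bk, 32.8% of Hist1h2bj and 52.3% of Hist1h2bb. All 3 of these H2B genes had low values in GFP4, between 2.53 and 4.14, where the offset under the logarithm shrinks differences.

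The H3 genes that rose included Hist1h3i by 2.57 (SE 0.35, adjusted p = 1.6e-05) and Hist1h3d by 2.10 (SE 0.31, adjusted p = 4.57e-05). Only 6.8% of the Hist1h3i words are its own, and 85.3% also occur in Hist1h3h. Hist1h3d was 6.49, 6.0 and 6.76 in GFP4 and 8.13, 8.51 and 8.90 in GFP1, without overlap, and 72.4% of its words are its own. Hist1h4d, the H4 gene named for its high mean, was 11.13, 10.62 and 11.32 in GFP4, 11.40, 10.95 and 11.63 in GFP3, 11.93, 11.73 and 11.93 in GFP2, 12.11, 12.56 and 12.29 in GFP1 and 11.36, 11.73 and 12.32 in Total. Its bins rose in order, with overlap between GFP4 and GFP3 alone, and the difference was 1.30 (SE 0.25, adjusted p = 0.0023).

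**Figure D2:**
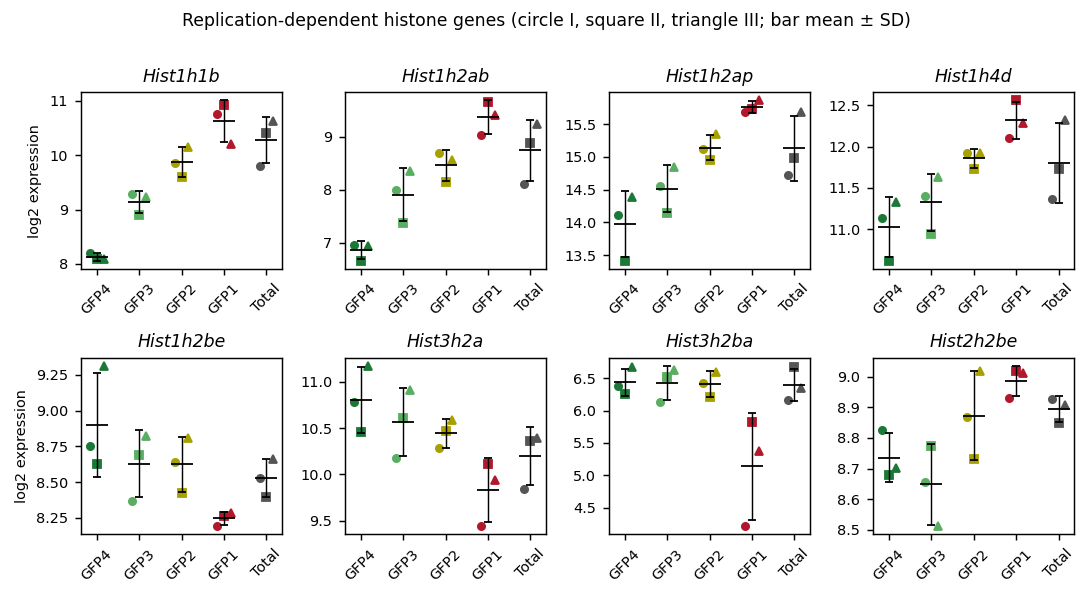
Log2 expression (vertical axes, which differ between panels) of 8 replication-dependent histone genes in the 15 libraries by group, with each group's mean and SD. The upper 4 genes climb from GFP4 to GFP1, with Hist1h1b going from about 8.09 to 10.93; Hist1h2be, Hist3h2a and Hist3h2ba are lowest in GFP1, and Hist2h2be was not called.

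The 4 replication-dependent genes that fell were Hist3h2a, Hist3h2ba, Hist1h2be and Hist2h2aa2. Hist3h2a (chromosome 11, 58954685 to 58956830), the H2A gene of the Hist3 cluster, was 10.78, 10.46 and 11.17 in GFP4, 10.18, 10.61 and 10.91 in GFP3, 10.28, 10.47 and 10.59 in GFP2, 9.44, 10.11 and 9.94 in GFP1 and 9.84, 10.36 and 10.39 in Total. All GFP1 libraries lay below all libraries of the other bins, while GFP4, GFP3 and GFP2 overlapped. It fell by 0.98 (SE 0.22, adjusted p = 0.00487), although 32.1% of its words also belong to the overlapping gene Trim17. Hist3h2ba, the H2B gene of that cluster, was 6.38, 6.26 and 6.67 in GFP4 and 4.22, 5.82 and 5.38 in GFP1, with no overlap. It fell by 1.30 (SE 0.36, adjusted p = 0.0141); without GFP1 library I the difference was −0.84 (adjusted p = 0.0985), and without GFP4 library III it was −1.18 (adjusted p = 0.0623), and the adjusted p was 0.0505 with these groups fitted by themselves. Of the Hist3h2ba words, 32.9% also occur in the pseudogene Hist3h2bb-ps. Both Hist3 members thus fell, against 30 higher and 1 lower of the 51 Hist1 members and 4 higher and 1 lower of the 10 Hist2 members. Over all genes 9.27% were higher and 10.3% lower. The difference between clusters was not tested.

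Hist1h2be, an H2B gene whose model reaches into Hist1h1e, was 8.75, 8.63 and 9.31 in GFP4 and 8.19, 8.26 and 8.28 in GFP1. The groups did not overlap, and it fell by 0.65 (SE 0.19, adjusted p = 0.0211). The call was lost without GFP4 library III (−0.44, adjusted p = 0.155) or without GFP1 library I, II or III (adjusted p = 0.0645, 0.0526 and 0.0504), and in a quantile normalization without immunoglobulin genes (−0.55, adjusted p = 0.0557). Hist2h2aa2, listed at 7.84, 6.20 and 8.96 in GFP4 and 0.95, 3.26 and 1.14 in GFP1, fell by 5.88 (SE 1.21, adjusted p = 0.00448). All of its words also occur in Gm20632, and 0.0% are its own, so how its reads were divided cannot be seen in the deposited values. Its neighbour Hist2h2aa1, likewise with 0.0% of its own, differed by −0.24 (SE 0.60, adjusted p = 0.872).

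Some abundant members were not called. Hist2h2be, an H2B gene with 97.2% of its own words, was 8.83, 8.68 and 8.70 in GFP4 and 8.93, 9.02 and 9.01 in GFP1. The GFP1 libraries were above the GFP4 libraries, but the difference was 0.25 (SE 0.15, adjusted p = 0.301). Hist1h2bc, an H2B gene with a model of 2 exons, was 10.78, 10.36 and 11.17 in GFP4 and 9.82, 10.41 and 10.24 in GFP1. These groups overlapped, with a difference of −0.61 (SE 0.28, adjusted p = 0.188). Hist1h2ac, its H2A neighbour, differed by −0.35 (SE 0.68, adjusted p = 0.832), with GFP4 libraries as far apart as 7.93 and 10.10.

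The members were also counted by the annotated end of their transcripts, a property that the choice of members did not use. Of the 23 genes whose model ends near the stem-loop, 15 were higher and 1 was lower in GFP1, with a median difference of 2.11. Of the 22 whose model runs more than 100 bases past it, 8 were higher and 3 were lower, with a median of 0.72. The 19 models without a stem-loop had 11 higher and 0 lower, with a median of 2.10, and 16 of their differences were positive. These counts are a description, and no test of the difference between the 3 kinds was made. In this comparison 9.27% of all genes were higher and 10.3% lower. Most models that run past the stem-loop had at least 50% of their own words, and most that end near it had fewer. The kind of model and the sharing of reads therefore cannot be told apart in these counts. Of the 23 genes with at least 50% of their own words, 12 were higher and 3 lower, with a median difference of 1.27. Of the 41 with fewer, 22 were higher and 1 lower, with a median of 2.00.

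H2A and H2B genes often lie head to head, sharing the stretch between their starts. There were 11 such pairs within 400 bases of each other, 175 to 301 bases apart. Both genes rose in 2 pairs, 1 gene rose in 6, and neither was called higher in 3. Among all replication-dependent genes 34 of 64 were higher, and among all genes tested 9.27%. Several genes of these pairs share most of their words with other genes, as Hist1h2bq does (1.7% its own), so their single calls are uncertain. In the pair Hist1h2ag and Hist1h2bj, 269 bases apart, both rose, by 2.45 and 3.51. In the pair Hist2h2ac and Hist2h2be, 238 bases apart, Hist2h2ac rose by 2.44 and Hist2h2be differed by 0.25. In the pair Hist1h2ac and Hist1h2bc, 250 bases apart, neither was called. The difference between the genes of a pair was not tested.

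Summing linear values over a family removes the uncertainty between the paralogs in that sum, but not that from reads shared with genes outside it. Such genes include Gm20632, which holds all words of Hist2h2aa2, and the pseudogene Hist1h2aj, which was counted apart. All replication-dependent genes together made up 980.3, 610.5 and 1233 ppm of the summed values in GFP4, 1098, 957.1 and 1499 ppm in GFP3, 1578, 1432 and 1888 ppm in GFP2, 2095, 2470 and 2581 ppm in GFP1, and 1179, 1518 and 2345 ppm in Total. The GFP1 libraries lay above all libraries of the other bins, and the ratio of the GFP1 mean to the GFP4 mean was 2.53. Hist1h2ap held much of this sum; without it the ratio was 1.78 and the bins overlapped, with GFP1 library I at 649.1 ppm, GFP2 library III at 748.9, GFP3 library III at 689.5 and GFP4 library III at 648.4. The family ratios were 2.92 for H2A, 2.19 for H4, 2.08 for H3 and 1.94 for H1. H2B stood at 0.91, with GFP4 libraries at 98.2, 72.6 and 131.3 ppm and GFP1 libraries at 75.0, 101.4 and 98.7 ppm, which overlapped. Genes with high values weigh most in a sum, and the H2B genes named above as rising had low ones. These sums were not tested.

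**Figure D3:**
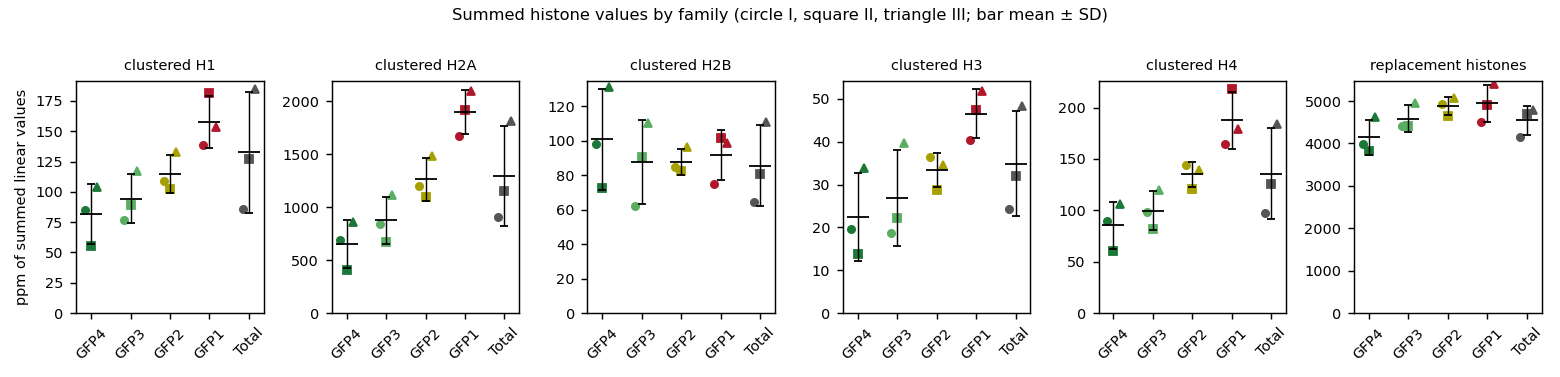
Summed linear values (ppm of each library's total, vertical axes from 0 and different in each panel) of the replication-dependent H1, H2A, H2B, H3 and H4 genes, here called clustered, and of the replacement histones, by group with mean and SD. The H2A sum climbs from a GFP4 mean of 651.1 ppm to a GFP1 mean of 1898 ppm, and the H2B sum stays between 61.9 and 131.3 ppm.

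Of the 13 replacement genes, 11 were tested; H2afb2 and H2afb3, short H2A variants known from testis, did not pass the filter on low values. In GFP1 against GFP4, 7 were higher and 0 were lower by limma, against 9.27% and 10.3% of all genes. Of the 11, 8 had an unadjusted p under 0.05. The median difference of the 11 was 0.33. H2afx, the H2A variant that is phosphorylated at DNA breaks (chromosome 9, 44334694 to 44336077), was 11.12, 11.36 and 11.22 in GFP4, 12.22, 11.52 and 12.05 in GFP3, 12.61, 12.08 and 12.46 in GFP2, 13.01, 12.94 and 13.32 in GFP1, and 12.56, 12.41 and 13.07 in Total. GFP4 lay below and GFP1 above all libraries of the other bins. The difference was 1.86 (SE 0.20, adjusted p = 1.42e-05). It is also the replacement gene whose transcript holds a stem-loop, and its model runs 822 bases past it.

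Both genes of the H2A.Z variant, which marks promoters, rose. H2afz was 13.87, 14.24 and 14.19 in GFP4, 14.82, 14.30 and 14.64 in GFP3, 15.20, 14.64 and 14.87 in GFP2, 15.43, 15.30 and 15.69 in GFP1, and 15.04, 14.97 and 15.33 in Total. GFP1 lay above all other bins, while GFP2 and GFP3 overlapped. The difference was 1.38 (SE 0.17, adjusted p = 7.34e-05). Of the H2afz words, 57.7% are its own and 33.5% also occur in Tmcc1. H2afv was 12.22, 12.19 and 12.38 in GFP4 and 12.99, 13.05 and 13.07 in GFP1, and rose by 0.77 (SE 0.11, adjusted p = 4.06e-05).

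Smaller rises were measured for H2afj, an H2A variant (0.66, SE 0.15, adjusted p = 0.00323), H2afy, which encodes macroH2A1, a variant with a large extra domain (0.29, SE 0.07, adjusted p = 0.0037), and H1f0, the linker histone of resting and differentiated cells (0.33, SE 0.09, adjusted p = 0.0112). H1f0 was 12.59, 12.43 and 12.48 in GFP4, 12.77, 12.72 and 12.76 in GFP3, 12.87, 12.89 and 12.94 in GFP2 and 12.70, 13.00 and 12.77 in GFP1. Its highest bin mean was that of GFP2, and the GFP1 range enclosed all GFP2 and GFP3 libraries. The H1f0 call was lost without GFP4 library II (adjusted p = 0.0566) or GFP1 library II (adjusted p = 0.091). H1fx, a linker variant, was 8.99, 9.04 and 8.95 in GFP4 and 10.30, 10.28 and 10.76 in GFP1, a rise of 1.45 (SE 0.44, adjusted p = 0.0389). Its Total libraries were as far apart as 8.47 and 10.78, and the call was lost in 11 of the 15 fits that each left out 1 library, those without any 1 library of GFP4 or GFP1, GFP3 library I or III, GFP2 library I or II, or Total library II (adjusted p from 0.0515 to 0.127).

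The H3.3 genes, which encode the same replacement H3 protein, were not called. H3f3b was 16.04, 15.76 and 16.34 in GFP4, 15.73, 16.14 and 16.20 in GFP3, 15.73, 15.98 and 16.14 in GFP2, 15.31, 15.71 and 15.73 in GFP1, and 15.39, 15.82 and 15.50 in Total. The GFP1 libraries were all below the GFP4 libraries, by a narrow margin, and the difference was −0.46 (SE 0.19, adjusted p = 0.126). It passed as lower where genes were filtered at a mean of 1 ppm (adjusted p = 0.0469). H3f3a was 15.06, 15.16 and 15.20 in GFP4 and 15.20, 15.28 and 15.38 in GFP1, a difference of 0.15 (SE 0.08, adjusted p = 0.261). In a quantile normalization without immunoglobulin genes that difference was 0.26 (adjusted p = 0.0235). H2afy2, which encodes macroH2A2, differed by 0.19 (SE 0.34, adjusted p = 0.808), and H2afb1, near the lowest value throughout, by 0.14 (SE 0.70, adjusted p = 0.944).

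**Figure D4:**
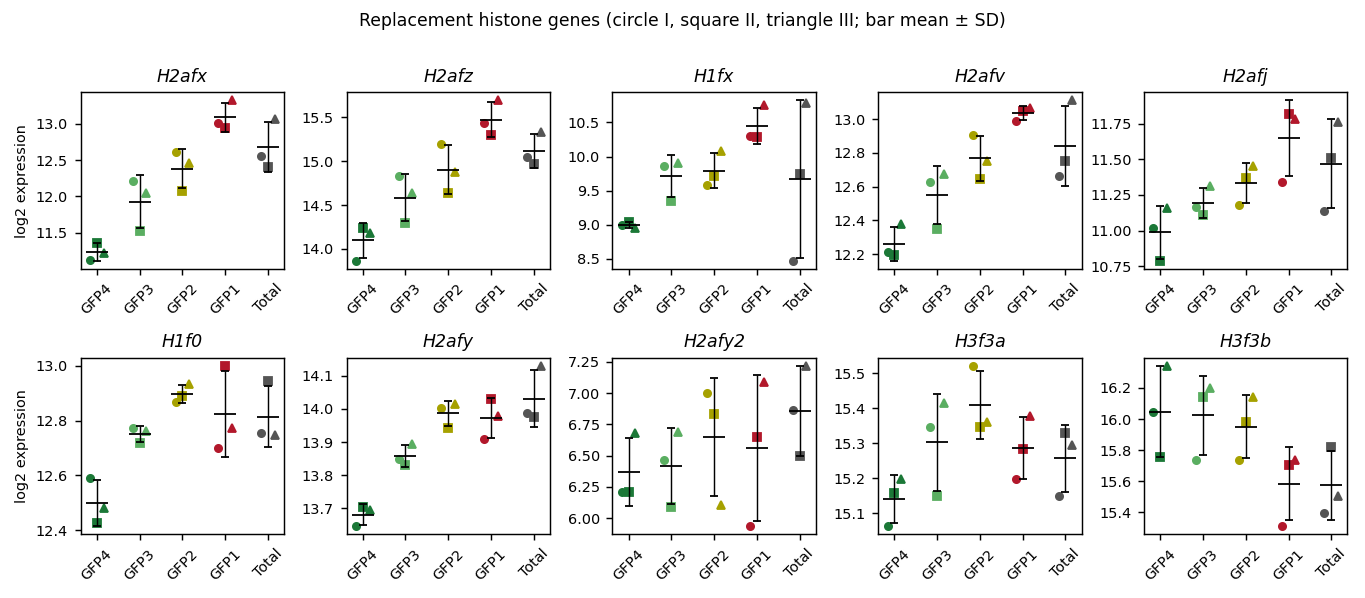
Log2 expression (vertical axes, which differ between panels) of 10 replacement histone genes in the 15 libraries by group, with each group's mean and SD. H2afx, H2afz and H2afv climb from GFP4 to GFP1, H1f0 and H2afy have their highest bin mean in GFP2, and the H3f3b libraries of GFP1 (15.31 to 15.73) lie below its GFP4 libraries.

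The trend over the 4 bins is a linear slope in log2 units for each bin passed on the way from GFP4 to GFP1. It gives GFP4 and GFP1 the most weight and uses the same libraries as the comparison of those bins. A call therefore does not by itself show a graded change: Hist3h2ba, which dropped only in GFP1, was called as falling. Among replication-dependent genes 35 rose and 4 fell, with a median of 0.62 per step, and among replacement genes 7 rose and 0 fell by limma, with 9 at an unadjusted p under 0.05. The 4 that fell became 2 without GFP4 library III or GFP1 library I. Over all genes 9.6% rose and 10.5% fell. The smallest p among rising members belonged to Hist1h1b (0.82 per step, SE 0.07), Hist1h2ab (0.81, SE 0.09) and Hist1h2bj (1.15, SE 0.13). Of the replication-dependent genes, 40 of 64 (62.5%) had group means that rose at each step from GFP4 to GFP1, and 7 (10.9%) had means that fell at each step. The same orders were found in 12.1% and 14.8% of all genes tested. Among the 11 replacement genes tested, 5 rose at each step and 1 fell.

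**Figure D5:**
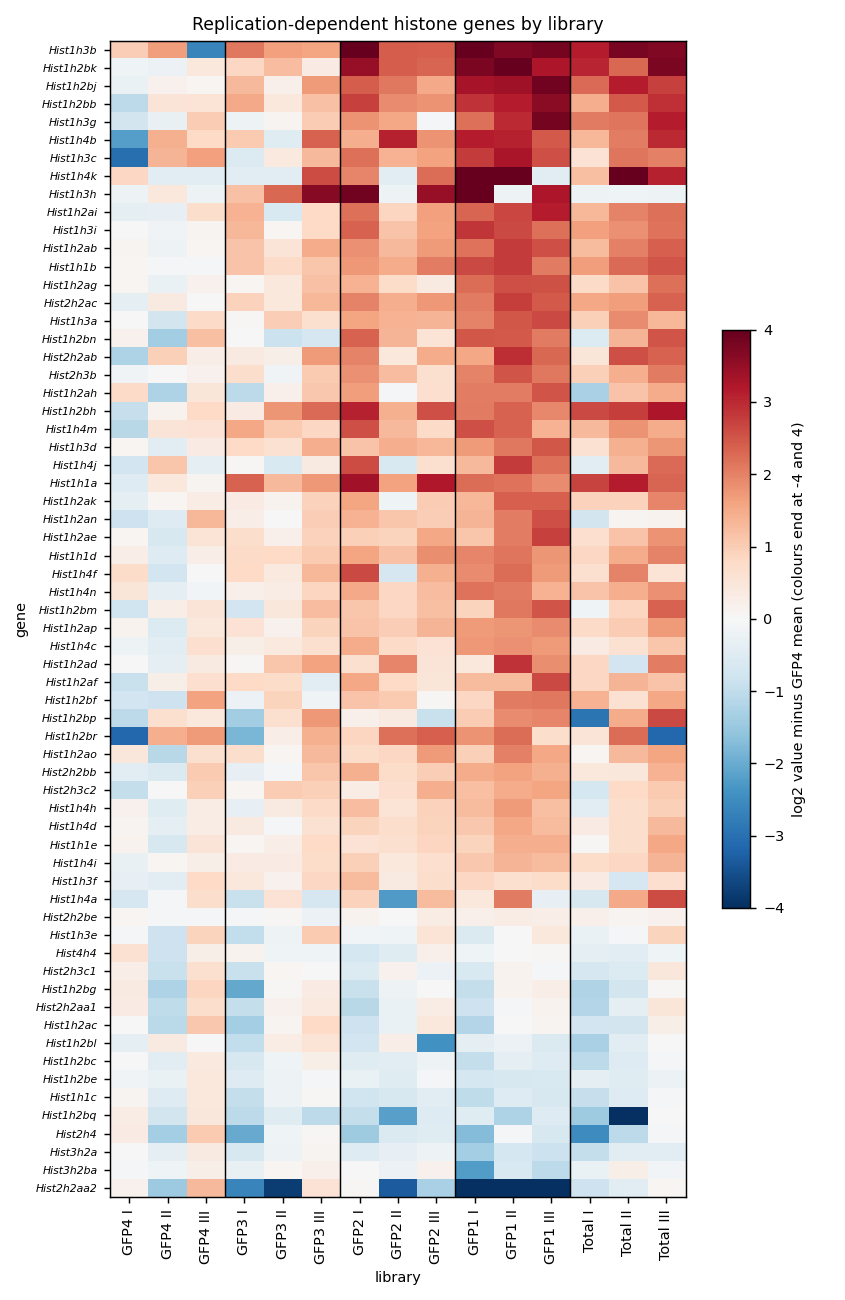
Log2 value minus the gene's GFP4 mean (colour, ending at −4 and 4) for the 64 replication-dependent histone genes (vertical axis, ordered by GFP1 minus GFP4) in the 15 libraries (horizontal axis). Red deepens from GFP3 to GFP1 in the upper part, while the 15 genes at the bottom have a GFP1 mean below their GFP4 mean, and Total library I is paler than Total library III.

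The single steps called few members. From GFP4 to GFP3 no member was called in either class by limma, although 11 replication-dependent and 5 replacement genes had an unadjusted p under 0.05. Over all genes 0.0429% were called higher and 0.0143% lower in that step. From GFP3 to GFP2 the counts were 0 again, with 11 and 1 members at an unadjusted p under 0.05, and over all genes 0% were called higher and 0% lower. The median replication-dependent difference was 0.42 in the first of these steps and 0.53 in the second, and the median replacement difference was 0.25 and 0.15.

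From GFP2 to GFP1, 3 replication-dependent genes rose and 1 fell, while over all genes 3.06% were called higher and 4.1% lower. Those that rose were Hist1h2ag by 1.62 (SE 0.39, adjusted p = 0.014), Hist1h2bj by 1.49 (SE 0.41, adjusted p = 0.0292) and Hist1h1b by 0.75 (SE 0.21, adjusted p = 0.035). Hist3h2ba fell by 1.27 (SE 0.36, adjusted p = 0.037): it was 6.43, 6.21 and 6.60 in GFP2, close to its GFP4 values, and dropped in GFP1. No replacement gene was called by limma in this step, and 3 had an unadjusted p under 0.05. This count of 4 was 1 without GFP2 library II or III or any 1 GFP1 library, and 8 without GFP3 library II; with GFP1 and GFP2 fitted by themselves it was 13.

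GFP2 was also compared with GFP4 in a fit that used no GFP1 or Total library, since those held the plasma and B cell transcripts. The deposited values that went into it still share 1 distribution with those libraries. This fit was added after the data were seen and shares the GFP4 libraries with the comparison above. It called 10 replication-dependent genes higher and 0 lower, and 6 replacement genes higher and 0 lower, by limma, against 2.8% higher and 2.03% lower over all genes; 28 and 8 members had an unadjusted p under 0.05. All 10 replication-dependent genes and 5 of the 6 replacement genes were also among those higher in GFP1. None of the 12 plasma and B cell markers was called, but 4 of 9 HSC markers were lower, and 2 of 8 erythroid and 1 of 4 T and NK cell markers were higher; their part in the histone differences was not tested. Of the 20 S phase genes 16 were higher. Hist1h1b was 1.75 higher (SE 0.17, adjusted p = 9.75e-05), Hist1h2ab 1.61 (SE 0.27, adjusted p = 0.00292) and Hist1h1d 1.54 (SE 0.26, adjusted p = 0.00337). H2afx was 1.15 higher (SE 0.19, adjusted p = 0.00809), H2afv 0.50 (SE 0.10, adjusted p = 0.00708) and H3f3a 0.27 (SE 0.07, adjusted p = 0.0447), while H2afz differed by 0.81 (SE 0.19, adjusted p = 0.0697). Of the genes that fell in GFP1, Hist3h2a differed by −0.36 (adjusted p = 0.471), Hist3h2ba by −0.02 (adjusted p = 0.993) and Hist1h2be by −0.27 (adjusted p = 0.618).

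Each bin was compared with the undivided HSCs, in 4 comparisons that share the 3 Total libraries. In GFP4, 20 replication-dependent and 6 replacement genes were lower than in Total and 0 were higher, against 4.7% of all genes higher and 5.29% lower. The smallest p were those of Hist1h1b (−2.16, SE 0.21, adjusted p = 4.2e-06), Hist1h2ab (−1.89, SE 0.28, adjusted p = 0.000183) and Hist1h2bj (−2.70, SE 0.41, adjusted p = 0.000185). Among replacement genes the difference was −1.45 for H2afx (SE 0.20, adjusted p = 0.000408) and −1.02 for H2afz (SE 0.17, adjusted p = 0.00219). The count of 26 histone genes was 17 without GFP4 library II.

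In GFP3, 3 replication-dependent genes, Hist1h1b, Hist1h2bk and Hist1h2bj, were lower than in Total and no replacement gene was called, against 0.672% of all genes higher and 1.47% lower; the 3 became 1 without GFP3 library II or Total library III, and 0 with GFP3 and Total fitted by themselves. In GFP2 no member was called by limma, 3 replication-dependent and 0 replacement genes had an unadjusted p under 0.05, and 0.0107% of all genes were higher and 0.318% lower. In GFP1, Hist1h2an (6.37, 7.06 and 7.59) was higher than in Total (4.28, 5.11 and 5.14), without overlap (2.16, SE 0.50, adjusted p = 0.0278) and Hist2h2aa2 lower (−5.48, SE 1.21, adjusted p = 0.0499), against 0.318% higher and 1.41% lower over all genes; no histone gene was called without GFP1 library III, Total library I or Total library II, and 1 was called without any 1 GFP4 library, GFP3 library I, GFP2 library III or GFP1 library I or II. Only 11.0% of the Hist1h2an words are its own. The 3 Total libraries were spread widely for the replication-dependent genes. Total library I was the lowest of the 3 in 51 of the 64 replication-dependent genes (79.7%), against 29.9% of the 10337 genes whose mean reached 10 ppm.

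The genes that process histone transcripts were listed separately. Of 18, 9 were higher in GFP1 than in GFP4 and 0 were lower by limma, with a median of 0.31. The shares over all genes were 9.27% higher and 10.3% lower. Slbp, the stem-loop binding protein, was 12.06, 12.11 and 12.19 in GFP4 and 12.86, 13.03 and 13.18 in GFP1, without overlap, and rose by 0.91 (SE 0.12, adjusted p = 1.06e-05). Ncbp1, of the cap-binding complex, rose by 0.84 (SE 0.09, adjusted p = 1.07e-06), Cpsf2, of the cleavage complex, by 0.72 (SE 0.10, adjusted p = 1.67e-05) and Srrt, which binds that cap complex, by 0.49 (SE 0.09, adjusted p = 0.000657). Npat, the activator of histone gene transcription at S phase entry, differed by 0.27 (SE 0.12, adjusted p = 0.165).

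Of 32 histone chaperones and exchange factors, 18 were higher in GFP1 and 1 was lower, against 9.27% and 10.3% of all genes. Their median difference was 0.36. Among the 11 that act with replication 8 rose, of which Asf1b, which hands over H3 and H4, rose by 2.13 (SE 0.17, adjusted p = 4.1e-08) and Chaf1a, of chromatin assembly factor 1, by 1.83 (SE 0.13, adjusted p = 1.12e-08). Among the 6 that place H3.3, Ubn1 rose by 0.30 (SE 0.10, adjusted p = 0.0468), Ubn2 fell by 0.55 (SE 0.16, adjusted p = 0.0241), and Hira (0.45, SE 0.17, adjusted p = 0.0832) and Daxx (0.13, SE 0.10, adjusted p = 0.474) were not called. All 5 genes for the centromeric histone CENP-A and its loading rose. Of the 10 for H2A.Z and for H2A and H2B, 4 rose, among them Anp32e, which removes H2A.Z, by 0.92 (SE 0.10, adjusted p = 1.49e-06).

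All 20 S phase genes listed were higher in GFP1, against 9.27% of all genes, with a median of 1.42. The smallest p were those of Uhrf1, which helps to copy DNA methylation (1.86, SE 0.12, adjusted p = 3.73e-09), Mcm2, of the replicative helicase, which also binds histones (1.46, SE 0.11, adjusted p = 1.36e-08), Cdt1, which loads the helicase (1.68, SE 0.13, adjusted p = 3.36e-08) and Cdc6, its partner (1.99, SE 0.16, adjusted p = 3.42e-08).

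Of the 11 pseudogenes and testis variants, 9 were tested and 1 was called, as higher in GFP1, against 9.27% of all genes. Hist1h2aj, annotated as an unprocessed pseudogene with 6.5% of its own words, was 0.14, 3.27 and 0.14 in GFP4 and 5.96, 4.86 and 5.74 in GFP1. Its difference was 4.34 (SE 0.82, adjusted p = 0.000611), and reads of its H2A paralogs could be counted to it. Hist1h1t, the testis linker histone, was 0.35, 2.50 and 2.00 in GFP4 and 0.14, 1.42 and 0.14 in GFP1 (adjusted p = 0.521).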

How the data were processed

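RNA from 15 libraries in 5 groups of 3 was amplified with SMART-Seq v4 and tagmented with Nextera XT, per the labels' protocols. Per the submitters' processing notes, kallisto 0.43.0 and GRCm38 were used; no label or header read here names the transcript set, the unit before normalization or the step from transcripts to genes. The authors deposited 1 table of log2 values per gene symbol. From its values the columns are quantile normalized and start at the log2 of a small offset plus the value, so differences in total RNA are removed, depth is unknown and no counting interval is given. Linear values here are 2 to the power of the log2 value minus 1, and ppm is the share of a library's sum.

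Groups come from the sample titles. Symbols whose linear value reached 1 in at least 3 libraries were tested (27994 of 31298; 84 of the 88 histone genes). All comparisons used limma 3.58.1 in R 4.3.3 with 1 mean per group over all 15 libraries, an intensity trend and robust moderation, 2-sided, with Benjamini-Hochberg adjustment over all genes tested and a threshold of 0.05; the fit was tested on simulated data. Libraries were not paired by number. The members and lists were chosen with earlier results of these data known. Named were every tested replacement gene, the 12 replication-dependent genes with the highest mean, up to 10 higher and 10 lower by smallest p in GFP1 against GFP4, up to 3 each way in the other comparisons and up to 4 each way in the partner lists. Members named beyond the rule, chosen after their values were seen, were Hist1h1a, Hist2h4, pseudogenes, testis variants and partner genes that were not called. A result for 1 partner gene is not reported here. Gene models, stem-loops and 31-base words come from GENCODE M21, and all 88 symbols matched it; promoters come from RefSeq. Alternatives were 2 other filters, another offset, 2 other normalizations, a replicate block, the compared groups alone, each library left out, and, added after seeing the data, GFP2 against GFP4 without the GFP1 and Total libraries. No sample column was left unused.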

Additional observations from a re-analysis of the deposited data

How the results depend on the processing

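For GFP1 against GFP4 the count of higher replication-dependent genes was 26 to 37 with each library left out (34 with all), lowest without GFP4 library I, and of higher replacement genes 5 to 7 (7 with all). Lower replication-dependent genes numbered 2 to 5 (4 with all), with 2 without GFP4 library III or GFP1 library I. For the trend the counts were 29 to 38 and 2 to 5 replication-dependent genes rising and falling, and 6 to 7 replacement genes rising. From GFP3 against GFP4 came 0 to 1 calls, from GFP1 against GFP2 1 to 8, and against Total 17 to 28 in GFP4, 1 to 4 in GFP3 and 0 to 2 in GFP1. A filter at a mean of 1 ppm gave 1 lower replacement gene, H3f3b, in both GFP1 against GFP4 and the trend, and 8 calls in GFP1 against GFP2. Median-of-ratios rescaling gave 7 calls there and 1 in GFP1 against Total, and quantile normalization without immunoglobulin genes gave 1 in GFP1 against Total. The compared groups alone gave 13 calls in GFP1 against GFP2, 0 in GFP3 against Total and 1 in GFP1 against Total. With GFP2 in place of GFP1, without the GFP1 and Total libraries, 10 replication-dependent genes were higher and 0 lower. Differences that changed sign were those of genes not called: H2afb1 (−0.31 to 0.45 with each library left out; −0.0118 without GFP4 library I or III, −0.31 without GFP1 library III), H2afy2 (−0.071 to 0.50; lowest without GFP1 library III), Hist2h2aa1 (−0.75 to 0.11; 0.11 without GFP4 library III, 0.048 without GFP1 library I) and Hist1h2ac (−0.89 to 0.20; 0.20 and 0.071 without the same libraries). Beyond those the construction shows, the causes were not tested.

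The labels give groups the same replicate numbers, which go with age and weeks of doxycycline. With the replicate block, 1 replacement gene was lower in GFP1 against GFP4 and 1 in the trend, and GFP1 against GFP2 gave 8 calls; H3f3b (adjusted p = 0.0295), Hist1h2bc (adjusted p = 0.0197) and Hist1h1c (adjusted p = 0.0136) passed as lower. Same-numbered libraries of GFP1 and GFP4 had deviations correlated at −0.29 to 0.16 over 10337 genes; over all groups same-numbered libraries had a median of 0.19 and others −0.11, and 11 of 15 libraries correlated best with their own number. Depth is unknown, so small differences of genes near the lowest value were not detectable.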

Other observations

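In GFP4, GFP3, GFP1 and Total, 1 library was the lowest of its group in over 50% of the replication-dependent histone genes. GFP4 library II was the lowest in 37 of 64 genes (57.8%, against 29.2% of the 10337 genes whose mean reached 10 ppm). GFP3 library I was the lowest in 34 (53.1%, against 34.7%), and GFP1 library I in 39 (60.9%, against 33.5%). In GFP2 the 64 genes split into 15, 32 and 17 with library I, II or III lowest; the split was 10, 11 and 1 for models that run past the stem-loop and 3, 9 and 11 for those that end near it. Of the 22 genes whose model runs past the stem-loop the counts were 17 for GFP4 library II, 16 for GFP3 library I, 17 for GFP1 library I and 19 for Total library I. Of the 23 whose model ends near it they were 13, 11, 15 and 19, and the difference between these kinds was not tested. Hist2h4, an H4 gene with 97.4% of its own words, was 8.19, 6.51 and 8.92 in GFP4 and 5.87, 7.71 and 7.92 in GFP3. The libraries of a group differ in age and in weeks of doxycycline. The low library was library I in GFP3, GFP1 and Total and library II in GFP4. Library III was the lowest in 2 of the 64 genes in GFP4, 5 in GFP3, 17 in GFP2, 19 in GFP1 and 3 in Total. Its shares of the 10337 genes were 29.6%, 33.0%, 36.4%, 31.1% and 39.0%, respectively. No cause was tested.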
